A study of Homo sapiens with 30 samples.

Results

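The genes described are the transcription factor gene MYC, its partner MAX, the MAX-binding repressor genes MXD1 and MXD4, the kinase genes PIM1, PIM2 and PIM3, and ODC1, the gene of ornithine decarboxylase. These 8 genes of the 43972 gene names on the main array design were chosen by name, with earlier results of these arrays known: MYC and PIM1 had been seen to differ between pollen and air at 2h25 min, and PIM2 at 6h50 min. Values of these comparisons are therefore given as a description without a p-value. Where a call is named there, it says that the probe met the same rule as all others and supports nothing.

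BEAS-2B is a cell line from human bronchial epithelium that was immortalized. The cells were grown on inserts at the air-liquid interface and received 10 mg of whole birch pollen, blown into a sedimentation chamber by pressured air at 0.5 bar, or were mock exposed without pollen, which the labels call air. Both groups were kept at 37 °C and 5% CO2 and their RNA was taken at 5 times from 10 min to 24 h (the others being 55 min, 2h25 min and 6h50 min), with 3 one-colour arrays in each of the 10 groups. The cells are 1 immortalized line, not donor epithelium, and a lower level in such bulk RNA cannot be told apart from fewer cells of a kind.

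MYC is a transcription factor that binds the E-box sequence as a dimer with MAX and raises the transcription of genes for growth, ribosomes and metabolism, and its own transcript is short-lived and rises quickly after mitogens and cytokines. MXD1 and MXD4 compete for MAX and repress the same kind of sites, and ODC1, the rate-limiting enzyme of polyamine synthesis, is a textbook target of MYC. The PIM kinases are serine/threonine kinases without a regulatory subunit, so that their amount is set largely by transcription, often downstream of JAK-STAT signals, and they favour survival and stabilise MYC.

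The transcripts were read by 13 probes, 60 bases long, that are on both array designs of the series. MYC had 2 probes on chromosome 8 (hg19, 128753268 to 128753327 and 128748076 to 128748135). The first was spotted 10 times across the array and was well above background on 30 of 30 arrays. The second, nearer the start of the gene, was well above background on 3 of 30 arrays and was not tested. MAX had 3 probes (brightest at 65542003 to 65542062 on chromosome 14), MXD1 had 2 (brightest at 70169884 to 70169943 on chromosome 2) and MXD4 had 2 (brightest at 2251280 to 2251339 on chromosome 4). PIM1 (chromosome 6, 37143102 to 37143161), PIM2 (chromosome X, 48770771 to 48770830), PIM3 (chromosome 22, 50357570 to 50357629) and ODC1 (chromosome 2, 10580788 to 10580847) had 1 probe each. These 12 probes were well above background on all 30 arrays. Whether a probe lies in an exon or an untranslated region is not given here, since no annotation of the files' build was used.

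The study gives LONP1 as another name of PIM1. The probe named PIM1 in the files carries an accession of PIM1 and lies on chromosome 6, and LONP1, a mitochondrial protease gene, has a probe of its own that is described separately.

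The E-box CACGTG is the site that MYC and MAX bind, so the windows from 250 bases before to 50 bases after the gene start (RefSeq, GRCh38.p14) were searched for it. Of 35116 such windows in the reference, 7.26% held CACGTG, which reads the same on both strands. Among the members with a window, ODC1 and MXD4 held it. Counted from the gene start, the E-boxes of ODC1 begin at -29 and 5, in the window of 1 of its 2 annotated starts, and that of MXD4 begins at -238. The stretches are shown from 5′ to 3′ with the E-box in capitals.
ODC1 (chr2:10448024-10448053, minus strand): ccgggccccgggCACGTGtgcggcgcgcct
ODC1 (chr2:10447990-10448019, minus strand): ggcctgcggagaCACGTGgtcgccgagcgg
MXD4 (chr4:2262330-2262359, minus strand): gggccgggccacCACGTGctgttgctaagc

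PIM1 and PIM3 differed together between pollen and air at 2h25 min, as given further on, and neither window held CACGTG. The 250 bases before their starts are shown with the GC box in capitals (GGGCGG, or CCGCCC as the other strand reads). The GC box is the site of the factor SP1, found at least once in 42.6% of all stretches of this length. PIM1 and PIM3 held 4 each, as did both ODC1 windows, while MXD1, MXD4, PIM2 and MAX held between 0 and 2. The share of all stretches that hold 4 or more was not counted, so whether 4 is unusual is not known.
PIM1 (chr6:37169902-37170151, plus strand): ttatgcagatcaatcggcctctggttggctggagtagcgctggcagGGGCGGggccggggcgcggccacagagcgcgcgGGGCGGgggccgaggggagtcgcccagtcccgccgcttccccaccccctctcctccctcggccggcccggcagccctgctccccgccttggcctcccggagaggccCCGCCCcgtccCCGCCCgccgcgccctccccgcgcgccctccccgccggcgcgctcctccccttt
PIM3 (chr22:49960522-49960771, plus strand): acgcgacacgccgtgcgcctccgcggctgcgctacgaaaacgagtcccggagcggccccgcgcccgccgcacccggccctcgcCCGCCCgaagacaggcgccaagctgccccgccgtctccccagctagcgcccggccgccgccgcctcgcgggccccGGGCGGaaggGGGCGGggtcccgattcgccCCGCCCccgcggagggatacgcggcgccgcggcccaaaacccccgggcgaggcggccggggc
These matches describe letters in the windows and do not show binding.

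Levels are given as the log2 of the processed signal minus the 75th percentile of the array, so that 0 is the brightness at that percentile and 1 unit is 2-fold. A probe was called when its Benjamini-Hochberg adjusted p over all 32142 probes tested with limma was under 0.05 and its change was at least 1.1-fold. Well above background were 44.7% to 59.3% of probes, depending on the array. All 7 airway epithelial markers stood well above background on all 30 arrays. So did 1 of 4 fibroblast markers (COL1A1), 2 of 4 leukocyte markers (PTPRC and CD14) and 1 of 3 endothelial markers (CDH5). COL1A2 did on 27 of 30 arrays, CD3E on 17 of 30 and VWF on 28 of 29, and COL3A1, PDGFRA and PECAM1 on 0. Tested were 7 epithelial, 2 fibroblast, 3 leukocyte and 2 endothelial markers, and 0 of them were called for pollen against air at any time. At no time were more than 11 of 24551 gene names called there, so this says little about the markers. The arrays lay on 5 slides. The 55 min pollen replicate 1 array was of another design and on a slide of its own.

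MYC stood higher in pollen-exposed than in air-exposed cells at 2h25 min, and its groups overlapped at the other 4 times. In air at 2h25 min the 3 arrays read 2.79, 2.48 and 2.64, and with pollen they read 3.91, 3.74 and 3.47. Every pollen array was above every air array, and the means differed by 1.07 ± 0.21 (SE) on the log2 scale, or 2.10-fold, with n = 3 per group. MYC was higher in all 3 pairs of arrays of the same number. The difference was 1.19 on the slide that held 2 arrays of each group and 0.83 on the slide that held 1 of each.

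The early times were tested, since the choice of the genes did not rest on them as far as known. The study describes the genes higher at 2h25 min as in general like those at 55 min. The tests at 55 min may thus not be wholly free of the choice. After 10 min MYC read 2.27, 2.13 and 2.47 in air and 1.85, 1.92 and 2.42 with pollen, and the ranges overlapped. The difference was -0.23 ± 0.21 (SE, limma adjusted p = 1). After 55 min it read 2.24, 2.74 and 3.28 in air and 2.88, 3.22 and 3.56 with pollen. Each pollen array was above the air array of the same number, but the groups overlapped, with air spread over more than a 2-fold range. Air replicate 1, the lowest, shared a slide with the 10 min arrays, and the other air arrays lay on another slide. The difference of 0.47 ± 0.21 had an unadjusted p of 0.0318 and a limma adjusted p of 0.918, so it did not pass the test. Without air replicate 1 it was 0.21, without air replicate 3 it was 0.73, and with the percentile taken over each design's own probes it was 0.06. On the slide that held 2 arrays of each group it was 0.39.

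Across time, MYC rose in the pollen-exposed cells from 10 min to 55 min by 1.16 ± 0.21 on the log2 scale, or 2.23-fold (limma adjusted p = 0.00932). It was the only member among 12 probes called in this comparison, against 0.843% of all probes. In air the same step was 0.46 ± 0.21 (limma adjusted p = 0.43), and 0 member probes were called against 0.187% of all probes. The pollen effect at 55 min minus that at 10 min was 0.70 ± 0.29 for MYC (unadjusted p = 0.0252, limma adjusted p = 0.945), so the steps in air and pollen were not shown to differ. In this comparison 0 member probes and 0% of all probes were called, and 1 member probe and 1213 of all probes had an unadjusted p under 0.05. The 10 min arrays shared a slide that holds none of the 55 min pollen arrays. It does hold replicate 1 of the 55 min air arrays (2.24), while air replicates 2 and 3 (2.74 and 3.28) lay on another slide. Without air replicate 1 the step in air was 0.72, and without air replicate 3 it was 0.20. Time and slide were thus mixed in both steps, and not in the same way. With slide as a random block the rise with pollen was 0.98 ± 0.23 and was no longer called (limma adjusted p = 0.146). It was also lost without the 10 min pollen replicate 1 array. At 2h25 min the level with pollen was 1.65 ± 0.21 above that at 10 min, given here as a description.

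After 6h50 min MYC read 2.54, 2.36 and 2.35 in air and 2.45, 2.49 and 2.54 with pollen, a difference of 0.08 ± 0.21. After 24 h it read 2.62, 2.50 and 2.42 in air and 2.26, 2.46 and 2.00 with pollen, a difference of -0.27 ± 0.21 (limma adjusted p = 1). The groups overlapped at both times. Ordered by mean, pollen at 2h25 min (3.71 ± 0.22, SD) came first, pollen at 55 min (3.22 ± 0.34) next and air at 55 min (2.75 ± 0.52) after it, and pollen at 10 min (2.06 ± 0.31) came last. The ranges of neighbours in this order overlapped in 9 of 9 cases.

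**Figure D1:**
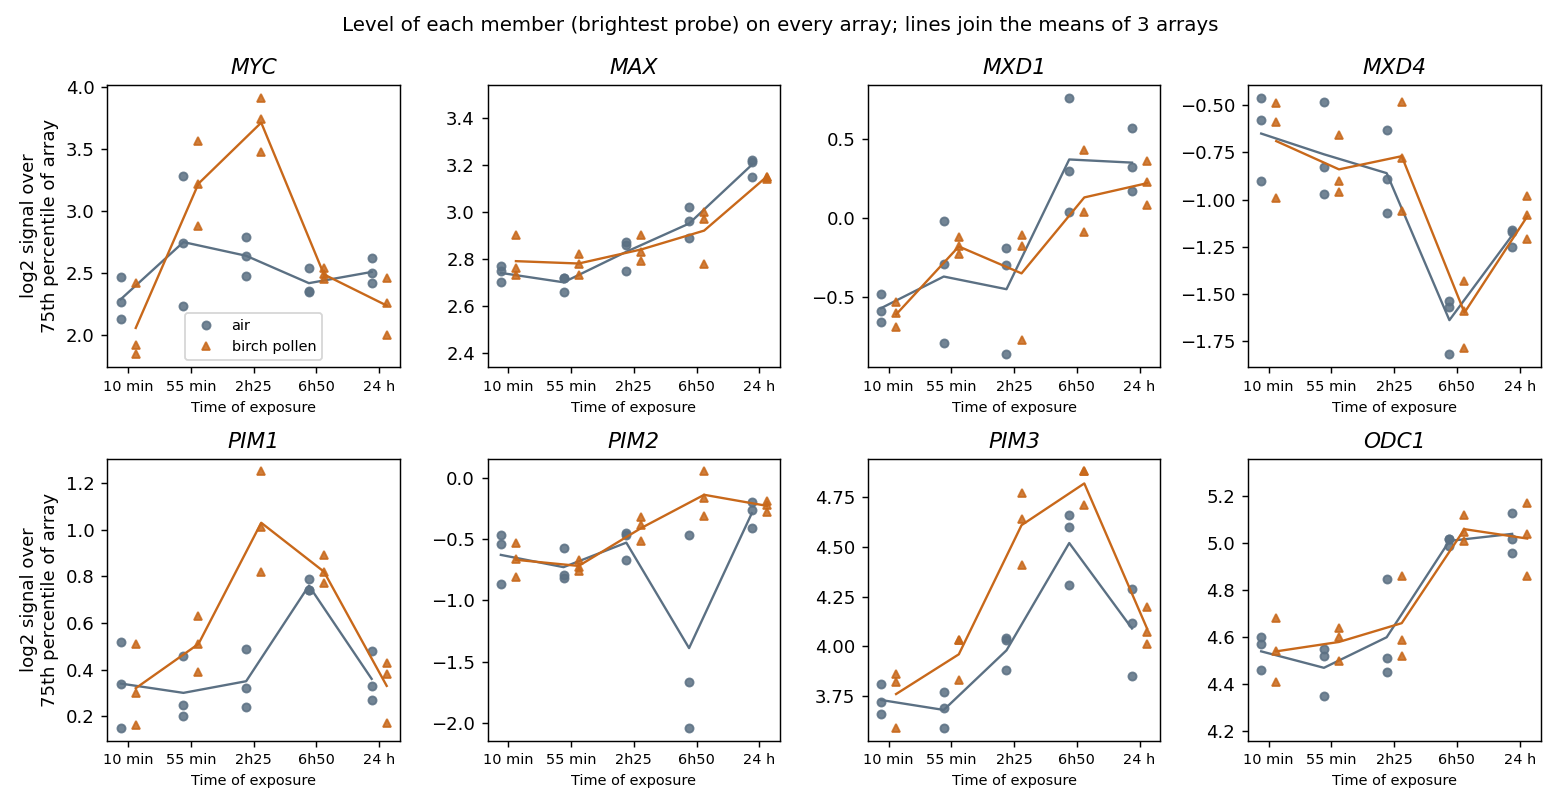
Level of the brightest probe of each member on each array, as log2 signal over the 75th percentile of the array, against the time of exposure. Circles are air, triangles are birch pollen, lines join the means of 3 arrays, and the vertical scale differs between panels. MYC, PIM1 and PIM3 stand apart between the groups at 2h25 min, and PIM2 shows low air arrays of -2.04 and -1.67 at 6h50 min.

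The replicate spots of MYC give the technical spread. On each array its 10 spots had an SD between 0.03 and 0.12 on the log2 scale, with a median of 0.05, while the SD between arrays of a group ran from 0.05 with pollen at 6h50 min, the size of the spread between spots, to 0.52 in air at 55 min. The second MYC probe was well above background on 1 of the 3 pollen arrays and 0 of the 3 air arrays at 2h25 min, and no fold change is given for it.

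Among the genes most like MYC over the 10 group means, of 23697 probes well above background on all arrays, were TRIB1 (Pearson r = 0.95), ETS2 (0.95), ITPRIP (0.95) and EREG (0.93). TRIB1 is a pseudokinase, ETS2 a transcription factor and EREG a ligand of the EGF receptor. Among the members, r with MYC was 0.59 for PIM1, 0.31 for PIM3 and between -0.26 and 0.22 for the others. These values describe 10 means from the same arrays, and the genes are not independent.

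MAX, the obligate partner of MYC, stayed level between pollen and air. Its brightest probe read between 2.66 and 3.22 on all arrays, and the difference of pollen from air lay between -0.05 and 0.08 at the 5 times, with an SE of 0.07. At 2h25 min it read 2.86, 2.75 and 2.87 in air and 2.83, 2.90 and 2.79 with pollen. The other MAX probes differed by -0.18 to 0.13 between pollen and air. None passed at 10 min, 55 min or 24 h.

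The MXD genes encode the repressors that share MAX. MXD1 read -0.19, -0.86 and -0.30 in air at 2h25 min and -0.11, -0.77 and -0.18 with pollen. Replicate 2 was the lowest in both groups, and the difference was 0.10 ± 0.21. At 6h50 min it was -0.24 ± 0.21. The second MXD1 probe differed by 0.18 and -0.09 at these times, and its SE was 0.29. MXD4 differed by between -0.08 and 0.11 at the 5 times on its brightest probe, with an SE of 0.17. ODC1 read 4.85, 4.45 and 4.51 in air at 2h25 min and 4.86, 4.52 and 4.59 with pollen, overlapping, and its difference lay between -0.01 and 0.11 over the 5 times, with an SE of 0.11. The E-boxes of ODC1 and MXD4 shown above thus lie in genes whose pollen-air differences were within their errors. Differences several times these errors could also be missed, since MYC at 2h25 min, with 1.07 ± 0.21, was not called.

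PIM1 and PIM3 both stood higher with pollen at 2h25 min, and PIM3 at 55 min and 6h50 min too. PIM1 read 0.49, 0.24 and 0.32 in air and 1.25, 1.01 and 0.82 with pollen. All pollen arrays were above all air arrays, by 0.68 ± 0.12 in the mean, or 1.60-fold. It was 0.77 on the slide with 2 arrays of each group and 0.49 on the slide with 1 of each. PIM3 read 4.04, 3.88 and 4.03 in air and 4.77, 4.64 and 4.41 with pollen, again without overlap, a difference of 0.62 ± 0.12 or 1.54-fold. In the slides it was 0.75 and 0.38. PIM2 read -0.67, -0.47 and -0.45 in air and -0.52, -0.32 and -0.39 with pollen, overlapping, a difference of 0.12 ± 0.23.

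At this time 1 of the 12 member probes, that of PIM1, was called, against 0.0342% of all probes. The comparison was part of the choice of the members, so nothing is read from this count. MYC and PIM3 did not pass here. With the replicate number as a block, which pairs each pollen array with the air array of its number, the SE of MYC fell to 0.11 and MYC was called. PIM3 was not called with that block, but with slide as a random block both were. At 2h25 min 3 of the 12 probes, those of MYC, PIM1 and PIM3, had all pollen arrays above all air arrays, as did 2.85% of all probes.

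At the times that were tested, PIM1 differed by -0.01 ± 0.12 at 10 min, 0.21 ± 0.12 at 55 min (limma adjusted p = 0.918) and -0.03 ± 0.12 at 24 h. At 55 min PIM3 read 3.59, 3.69 and 3.77 in air and 4.03, 3.83 and 4.03 with pollen, all above air. The difference of 0.28 ± 0.12 had an unadjusted p of 0.0294 and a limma adjusted p of 0.918, and 6.04% of all probes likewise had all pollen arrays above air. With the percentile taken over each design's own probes the 55 min differences turned to -0.21 for PIM1 and -0.13 for PIM3, while the median of all probes moved to -0.37. PIM3 differed by 0.03 ± 0.12 at 10 min and 0.01 ± 0.12 at 24 h.

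Over all members, 0 of 12 probes were called for pollen against air at 10 min, where 0% of all probes were. At 55 min and at 24 h 0 of 12 were called, where 0.00311% of all probes were at each. At an unadjusted p under 0.05, the member probes were 0 at 10 min, 2 at 55 min (MYC and PIM3) and 0 at 24 h, beside 587, 1637 and 1159 of all 32142 probes. The median of the 12 members was -0.04 at 10 min, 0.12 at 55 min and -0.04 at 24 h, and that of all probes 0.01, -0.01 and 0.00.

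**Figure D2:**
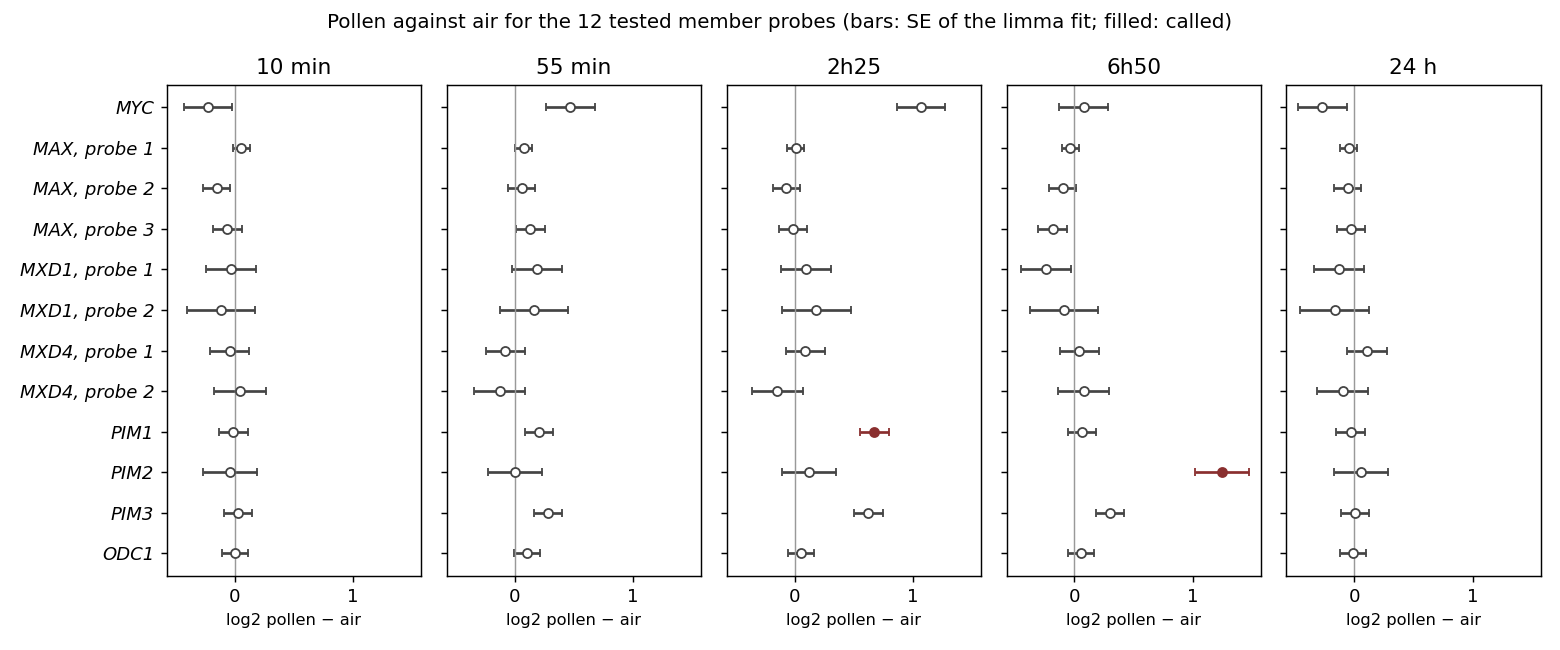
Difference of pollen from air on the log2 scale for the 12 tested member probes at each time, with SE from the limma fit, where filled points are called. Probes of a gene are numbered from the brightest. MYC, PIM1 and PIM3 lie at 1.07, 0.68 and 0.62 at 2h25 min, and the PIM2 point at 6h50 min, 1.25, rests on air spots in a dim area of the arrays.

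At 6h50 min PIM1 and PIM3 were high in air as well. PIM1 read 0.79, 0.74 and 0.74 in air and 0.77, 0.89 and 0.82 with pollen, overlapping, and air was 0.42 ± 0.12 above air at 10 min. PIM3 read 4.66, 4.60 and 4.31 in air and 4.71, 4.88 and 4.88 with pollen, all above air, a difference of 0.30 ± 0.12. At this time 6.51% of all probes likewise had all pollen arrays above air. In air PIM3 was 0.79 ± 0.12 above its 10 min level. All 6h50 min arrays were on a slide of their own, so that time and slide cannot be told apart here.

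The brightest MXD4 probe was lower at 6h50 min than at 10 min, in air and with pollen. MXD4 read -1.82, -1.57 and -1.54 in air and -1.59, -1.43 and -1.79 with pollen, its lowest levels of the series, and air was -0.99 ± 0.17 from air at 10 min. The second MXD4 probe was at -0.36 ± 0.22 in air and -0.32 ± 0.22 with pollen, and was not called. The brightest MXD1 probe was 0.94 ± 0.21 above its 10 min level in air, while the second MXD1 probe was at -0.55 ± 0.29 from it, so that the 2 probes of this gene went opposite ways. ODC1 was 0.47 ± 0.11 above its 10 min level in air and 0.52 ± 0.11 with pollen. These differences are a description, with the same limit of slide and time. Beside them 9686 of 24551 gene names were called between 6h50 min and 10 min in air. Of the epithelial markers 5 of 7 were called lower in air and EPCAM higher. The leukocyte markers PTPRC and CD3E were called lower in air, with differences of -1.12 and -2.02. With pollen 2 of 7 epithelial markers were called lower and 1 higher, and 2 of 3 leukocyte markers lower, beside 10969 of 24551 gene names called. The part of these markers in the members' values at 6h50 min was not tested.

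The genes most like PIM1 over the group means were F3 (r = 0.94), ANXA1 (0.93), B3GNT5 (0.93), NEDD4L (0.91) and SKIL (0.90). F3 encodes tissue factor, which starts the extrinsic pathway of coagulation, ANXA1 annexin A1, B3GNT5 a glycosyltransferase, NEDD4L a ubiquitin ligase and SKIL a repressor of SMAD signalling. PIM3 had r = 0.89 with PIM1.

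LONP1 did not move with PIM1. It read 2.32, 2.21 and 2.41 in air at 2h25 min and 1.98, 2.21 and 2.15 with pollen, a difference of -0.20 ± 0.15. It differed by 0.22, -0.09, 0.06 and -0.07 at 10 min, 55 min, 6h50 min and 24 h.

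PIM2 was called at 6h50 min, and its values there depended on where its spot lies. PIM2 read -2.04, -1.67 and -0.47 in air and -0.31, -0.17 and 0.05 with pollen. Air replicates 1 and 2 stood far below replicate 3, which was near the pollen arrays. At the other times PIM2 read between -0.87 and -0.19. The mean difference was 1.25 ± 0.23, or 2.38-fold. It was 1 of 12 member probes called, against 0.0436% of all probes, in a comparison that the choice rested on.

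The single PIM2 spot lies at row 204 and column 76, inside an area in the centre of air replicates 1 and 2 that was dim against the other arrays. The local median deviation around it was -1.22 and -0.85 on these arrays, and -0.01 on air replicate 3. The area, with a deviation under -0.3, covered 3.76% and 2.55% of the spots of these arrays. With its spots left out, 1 air array remained for PIM2 and the difference was 0.33 ± 0.16, no longer called. With the replicate number as a block as well it was 0.52 ± 0.15, likewise not called. Of the 14 probes called at this time 8 had a spot in the area, as had 4.04% of all probes tested. No other member lay in it. The 10 spots of MYC had local deviations of -0.12 or higher on all air arrays, and PIM1 of -0.13 or higher, so their 6h50 min values were the same with and without the area.

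**Figure D3:**
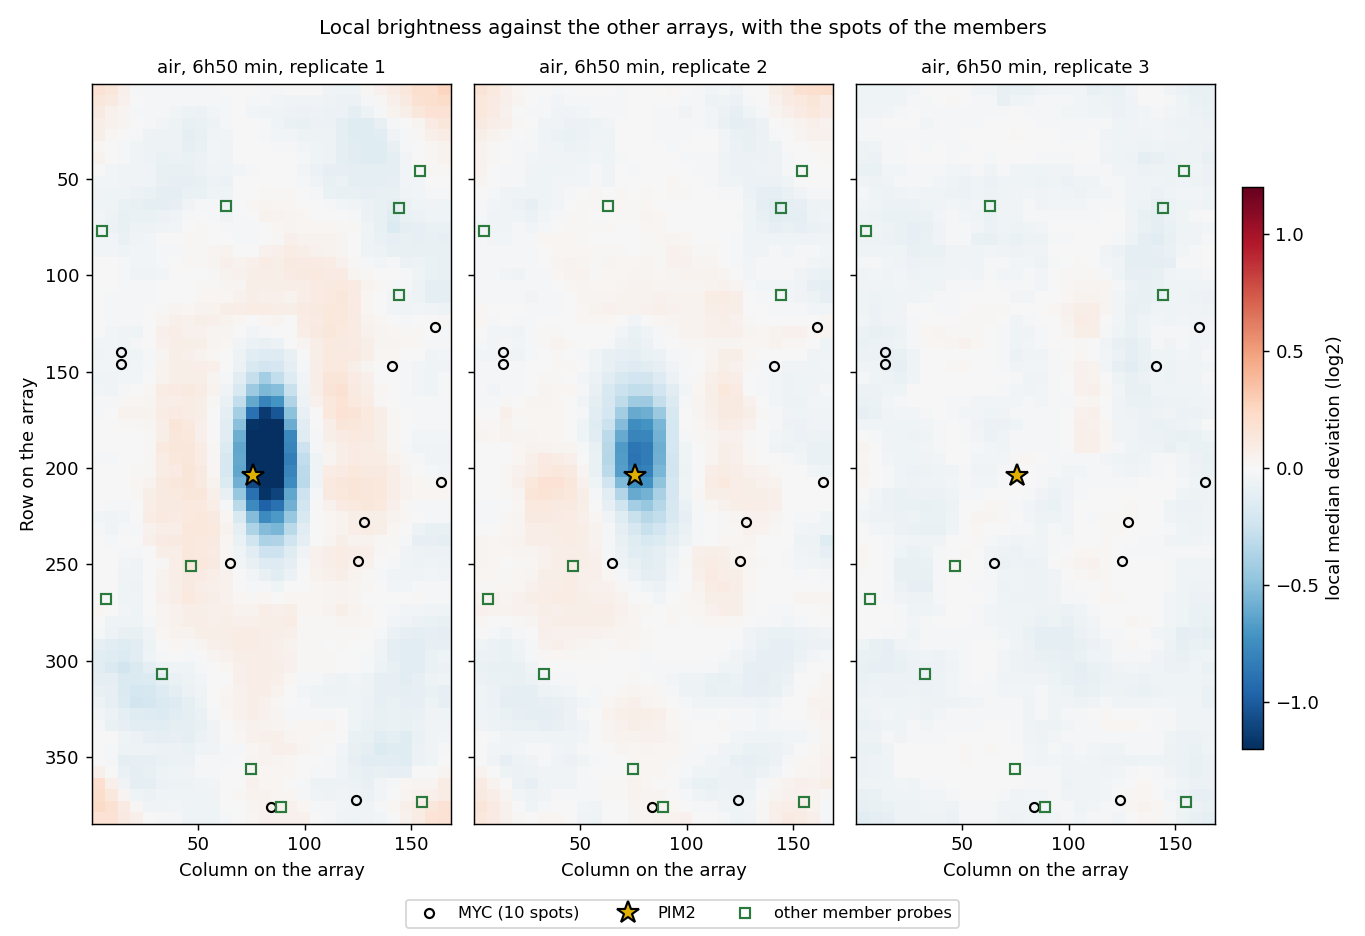
Local median deviation of brightness, in log2, over the rows and columns of the 3 air arrays at 6h50 min, with the spots of the members drawn on it. Blue is dimmer than on the other arrays. The star of PIM2 falls in the dim centre of replicates 1 and 2, with deviations of -1.22 and -0.85, while the spots of MYC and the other members lie outside it.

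From 10 min to 24 h several members changed alike in air and with pollen. In air 7 of the 12 probes were called, against 37.5% of all probes, and with pollen 6 were, against 35.3%. The 10 min arrays were all on 1 slide and the 24 h arrays all on another, so that time and slide cannot be told apart. With slide as a random block 3 of the 7 calls in air were left, those of the brightest probes of MAX and MXD1 and of ODC1, while those of the second MAX and MXD1 probes, MXD4 and PIM3 were lost. With pollen 3 of the 6 calls were left under that block, and the brightest MXD1 probe and PIM3 were among those lost.

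Both MXD1 probes rose. The brightest read -0.66, -0.48 and -0.59 in air at 10 min and 0.17, 0.32 and 0.57 at 24 h, without overlap, a rise of 0.93 ± 0.21 (limma adjusted p = 0.00139). With pollen it rose by 0.83 ± 0.21 (limma adjusted p = 0.00419). The second MXD1 probe rose by 1.16 ± 0.29 in air and 1.11 ± 0.29 with pollen. With slide as a random block the brightest probe was still called in air (0.77, limma adjusted p = 0.0363), and the second was not.

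MAX rose on 2 of its 3 probes. The brightest went from 2.77, 2.75 and 2.70 to 3.22, 3.21 and 3.15 in air, a rise of 0.46 ± 0.07 (limma adjusted p = 3.38e-05), and by 0.35 ± 0.07 with pollen (limma adjusted p = 0.000668). The second rose by 0.37 ± 0.12 and 0.46 ± 0.12, and was called in 5 of 10 fits in air and 7 of 10 with pollen, over the settings that keep all arrays. The dimmest, for another transcript, differed by -0.07 and -0.04 and did not pass. Which transcript each probe reads beyond its accession was not tested.

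ODC1 rose from 4.57, 4.46 and 4.60 to 5.13, 4.96 and 5.02 in air, without overlap, by 0.49 ± 0.11 (limma adjusted p = 0.00117). With pollen it rose by 0.48 ± 0.11 (limma adjusted p = 0.00181). MXD4 fell in air on its brightest probe, from -0.90, -0.58 and -0.46 to -1.16, -1.25 and -1.17, a difference of -0.55 ± 0.17 (limma adjusted p = 0.0127). With pollen the difference was -0.40 ± 0.17 (limma adjusted p = 0.0673), and its second probe differed by -0.16 and -0.31, without passing. PIM3 rose by 0.36 ± 0.12 in air and 0.33 ± 0.12 with pollen (limma adjusted p = 0.0235 and 0.0344), and kept its call in 2 of the 6 fits without 1 array in each case.

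MYC and PIM1 were at 24 h near their 10 min levels, with differences of 0.22 ± 0.21 and 0.02 ± 0.12 in air and 0.18 ± 0.21 and 0.00 ± 0.12 with pollen. PIM2 differed by 0.34 ± 0.23 in air and 0.44 ± 0.23 with pollen. Its SE fell to 0.12 once the dim spots at 6h50 min were left out of the shared spread, and both differences were then called (limma adjusted p = 0.0249 and 0.00571). Beside these changes 5 of the 7 epithelial markers were called lower and EPCAM higher at 24 h than at 10 min, in air and with pollen. KRT5 differed by -3.29 ± 0.31 in air, and the part of these markers in the members' values was not tested.

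**Figure D4:**
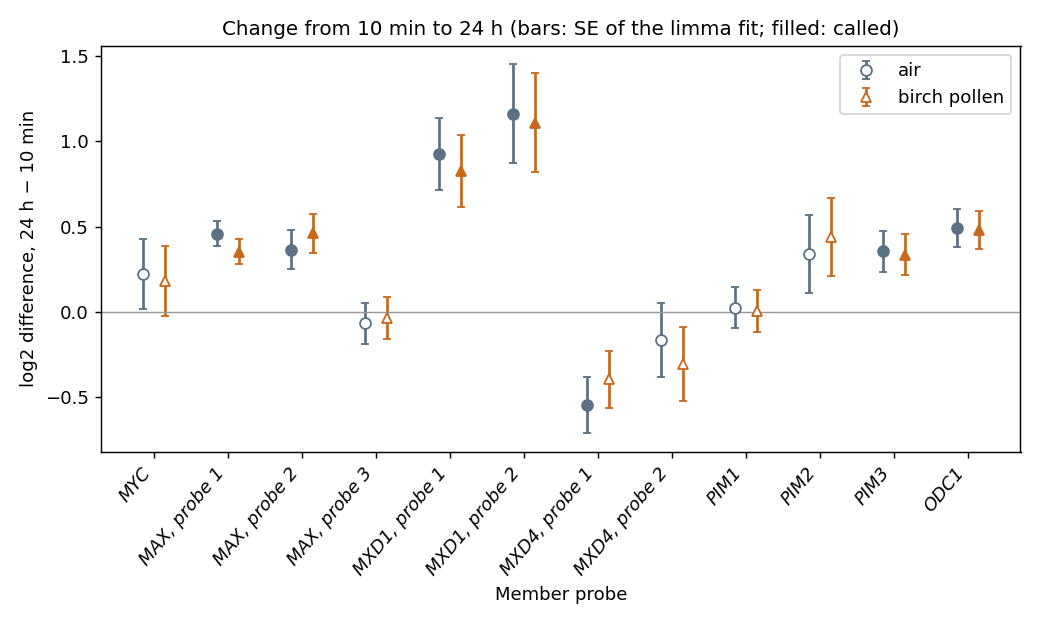
Difference of 24 h from 10 min on the log2 scale for each member probe, with SE, in air (circles) and with pollen (triangles), where filled points are called. The MXD1 probes lie highest, at 0.93 and 1.16 in air, and MXD4 lies lowest, at -0.55 in air and -0.40 with pollen.

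Genes around the members were taken from 7 lists, with 1 probe a gene name. For pollen against air 0, 1, 11, 10 and 1 of 24551 gene names were called at the 5 times in order. A count of 0 in any of these lists is therefore near the share of all gene names and says little about its genes. Among MYC's network partners 0 of 14 tested genes were called for pollen against air at any of the 5 times, and the median was -0.04 at 2h25 min beside -0.03 for all genes. MXI1, a repressor like MXD1, differed by 0.08 ± 0.13 at 2h25 min, and MNT, another MAX-binding repressor, by 0.13 ± 0.24. From 10 min to 24 h in air 2 of the 14 were called higher and 5 lower, beside 9119 called of 24551 gene names. MGA, which binds MAX, rose by 0.66 ± 0.10, while MXI1 fell by 0.76 and MXD3 fell by 0.74.

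Genes that MYC induces did not differ at 2h25 min as a list. Of 40 such genes 20 were higher and 20 lower with pollen, the median was 0.00, and 0 were called. NCL, the nucleolar protein nucleolin, differed by 0.08 ± 0.10 and CAD, an enzyme of pyrimidine synthesis, by -0.23 ± 0.14. At 6h50 min 33 of the 40 were higher, with a median of 0.12 beside -0.01 for all gene names, and 0 were called. Of these 40 genes 3 had a spot in the dim area, and 30 of the other 37 were higher, with a median again of 0.12. GNL3, the nucleolar protein nucleostemin, lay between 3.14 and 3.33 in air and between 3.50 and 3.68 with pollen. The difference was 0.30 ± 0.11 without overlap, and 6.51% of all probes had all pollen arrays above air at this time. At 24 h 11 of the 40 were higher, with a median of -0.06.

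From 10 min to 24 h 17 of the 40 were called higher and 4 lower in air, beside 9119 of 24551 gene names called. With pollen 13 were called higher and 4 lower, beside 8755. By sign alone 29 were higher and 11 lower in each, with medians of 0.24 in air and 0.18 with pollen, beside -0.08 for all gene names in each. CDK4, a kinase of the G1 phase, rose by 0.33 ± 0.11 in air, and LDHA, lactate dehydrogenase A, fell by 0.68. Of the 10 genes that are repressed with MYC, 4 were called higher and 3 lower in air, beside the same 9119 of 24551 gene names. By sign alone 5 were higher and 5 lower. CDKN1A, the cell cycle inhibitor p21, rose by 1.99 ± 0.26 in air and 1.67 ± 0.26 with pollen (limma adjusted p = 3.57e-06 and 4.35e-05). Between pollen and air it differed by -0.08 ± 0.26 at 2h25 min, and 0 of the 10 were called at any time.

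Of the 13 polyamine genes around ODC1 0 were called for pollen against air at any time, and the median was 0.01 at 2h25 min and 0.14 at 6h50 min, or 0.08 there without the gene in the dim area. SAT1, which acetylates polyamines for export, lay between 3.25 and 3.42 in air and 3.59 and 3.70 with pollen at 2h25 min, a difference of 0.30 ± 0.11. At 6h50 min it lay between 3.34 and 3.44 in air and 3.53 and 3.81 with pollen, again without overlap and with a difference of 0.30. All pollen arrays lay above air for 2.85% of all probes at 2h25 min and 6.51% at 6h50 min. AZIN1, the antizyme inhibitor, differed by 0.74 ± 0.25 at 6h50 min, but its spot too lay in the dim area of air replicates 1 and 2, and the difference was -0.09 without it. In air 5 of the 13 were called higher at 24 h than at 10 min and 2 lower, beside 9119 of 24551 gene names called. By sign alone 8 were higher and 5 lower. SRM, spermidine synthase, rose by 0.95 ± 0.17, and AMD1, which supplies the aminopropyl group, by 0.47 ± 0.10.

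Of the 10 genes of MYC turnover, such as FBXW7, which marks MYC for degradation, 0 were called for pollen against air at any time. FBXW7 differed by 0.04 ± 0.12 at 2h25 min. Of the 10 PIM substrates and survival genes 0 were called, and at 2h25 min 8 were lower and 2 higher with pollen, with a median of -0.09 beside -0.03 for all gene names. Of the 2 higher, MCL1, a survival protein of the BCL2 family, differed by 0.38 ± 0.16 at 2h25 min, from between 1.26 and 1.57 in air to between 1.69 and 1.99 with pollen. BAD, a death protein that PIM kinases phosphorylate, differed by -0.16 ± 0.13.

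The JAK-STAT list holds genes of the signals that often act above PIM transcription, and feedback genes of the same pathway such as SOCS3. Whether any of them acted on the PIM genes here was not tested. At 2h25 min 12 of 16 genes were higher with pollen, with a median of 0.16 beside -0.03 for all gene names. Of the 16, 10 were higher at 10 min, 11 at 55 min, 12 at 6h50 min and 13 at 24 h. Their medians were 0.02, 0.08, 0.16 and 0.08 in this order, so the lean was not particular to 2h25 min. At 2h25 min 2 of the 16 were called, beside 11 of 24551 gene names. The study itself names SOCS3 and LIF as higher with pollen at this time, so nothing is read from this count. SOCS3, the feedback inhibitor of gp130 cytokine receptors, lay between -0.77 and -0.29 in air and between 0.41 and 0.72 with pollen, a difference of 1.14 ± 0.15. The other was LIF, a cytokine of the IL6 family, named after its values were seen, with 1.097 ± 0.185. IL6, likewise named after its values were seen, differed by 1.45 and was not called. STAT3, the transcription factor of this pathway, differed by 0.16 ± 0.16. From 10 min to 55 min with pollen LIF and IL6 rose by 1.13 ± 0.19 and 2.59 ± 0.53, given as a description for the same reason. They were the 2 of 16 called in this step, beside 229 of 24551 gene names, and the limit of slide given for MYC holds here too. In air 0 of 16 were called in this step, beside 50 of 24551. For pollen against air at 55 min 0 of 16 were called, beside 1 of 24551.

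**Figure D5:**
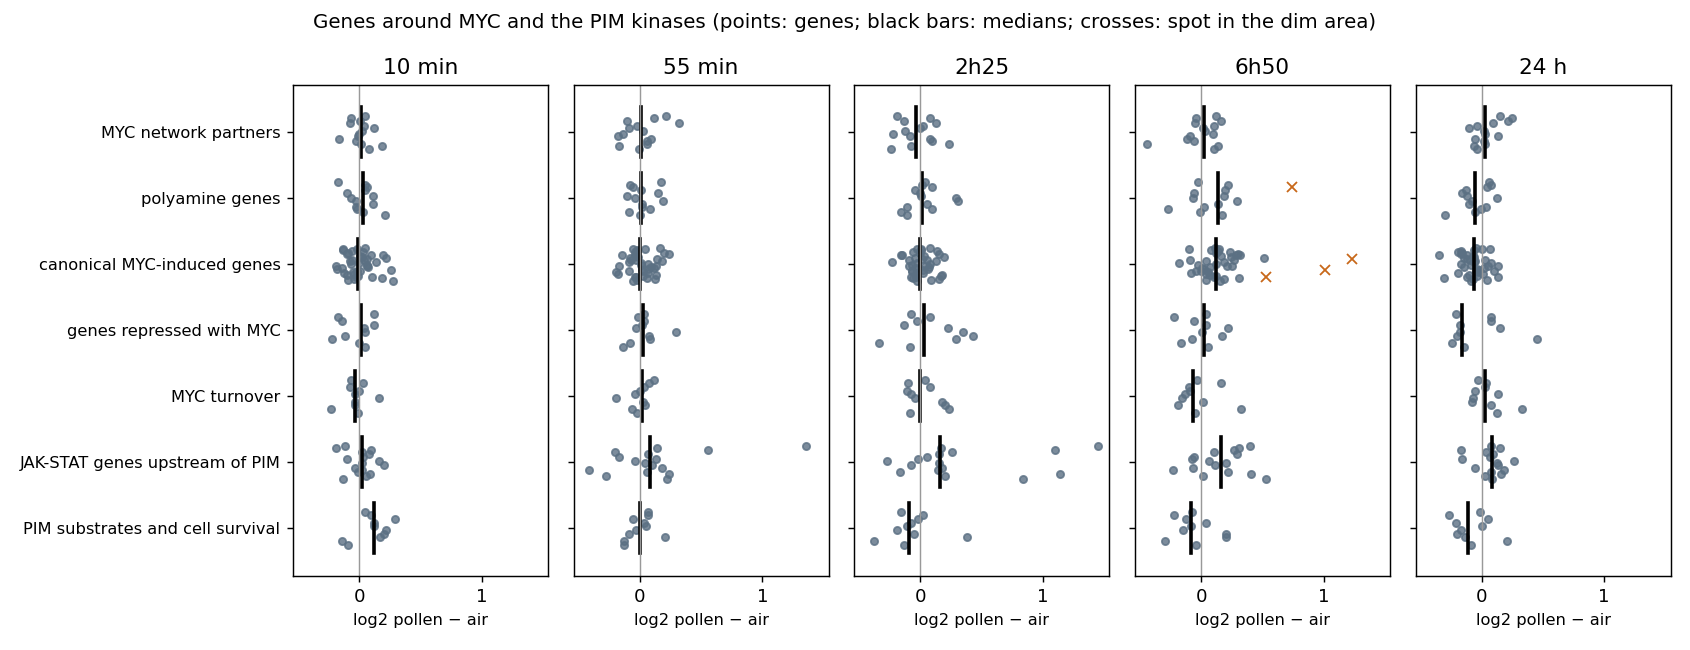
Difference of pollen from air on the log2 scale at each time for the genes of the 7 lists, 1 point a gene, with the median of each list as a black bar and genes with a spot in the dim area at 6h50 min as crosses. The medians lie between -0.16 and 0.16, and IL6, SOCS3 and LIF lie above 1 at 2h25 min.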

How the data were processed

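Total RNA of 30 BEAS-2B samples was hybridised to one-colour Agilent arrays. The authors deposited spot intensities extracted with Agilent Feature Extraction 11.0.1.1, background subtracted and detrended within the array per the file headers, with the mean signal and local background of each spot. A log2 table that the authors deposited beside them, preprocessed with limma per the methods, served as an alternative. Of its columns, 24 of 30 matched their own array best, and 6 matched another array of their group.

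Spots marked uneven or outlying were left out, replicate spots averaged, and log2 intensities scaled to the 75th percentile, taken over those 33873 probes that both designs (58201 and 42405 probes) share. It ran from 578 to 2110. Tests covered the 32142 probes that some group had well above background on each of its arrays. The 10 groups were fitted together over all 30 arrays with limma 3.58.1 in R 4.3.3 (20 residual degrees of freedom), with Benjamini-Hochberg adjustment, and tested on simulated data. Figures were drawn with matplotlib 3.10.9. There were 0 saturated spots, and precision is limited by having 3 arrays in a group. Exposures are stated to be repeated on different days, but no label ties an array to a culture, so p-values measure the spread between these arrays.

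The members and gene lists were chosen with earlier results of these data known. A member with several probes is represented by the brightest, and the others are given too. Named list genes were fixed by name with the lists. Dim areas were found as the median deviation from the other arrays in a window of 21 by 21 spots.

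Air and pollen arrays of the same number deviated together at 10 min (correlations from 0.30 to 0.35), 2h25 min (0.40 to 0.52) and 24 h (0.22 to 0.49), but not at 55 min (-0.12 to 0.35) or 6h50 min (0.05 to 0.12). Alternatives covered background correction, scaling, filter, dim areas, blocks, weights, the samples fitted and each array left out. Values of the same probe were compared and never those of different probes. Values of some genes outside the members are not reported here.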

Additional observations from a re-analysis of the deposited data

Results flagged for a closer look

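MAX was singled out because its pollen arrays stood above all air arrays at 55 min and below all air arrays at 24 h. Taken singly, 6.04% of all probes stood so at 55 min and 3.46% at 24 h, so neither is particular to MAX. At 55 min its brightest probe read 2.66, 2.72 and 2.72 in air and 2.82, 2.78 and 2.73 with pollen, a log2 difference of 0.08. At 24 h it read 3.22, 3.21 and 3.15 in air and 3.15, 3.15 and 3.14 with pollen, a difference of -0.05. Both differences were of the size of their SE of 0.07, and the difference between the times was not tested.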

How the results depend on the processing

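At 2h25 min 1 member probe was called. The count was 3 with normexp and quantile normalization, with quantile normalization of the processed signal and with slide as a random block (MYC, PIM1 and PIM3). It was 2 with the replicate block (MYC and PIM1), with or without the dim areas, and 0 with the percentile over own probes, no filter, array weights, the deposited log2 table, the 2 groups alone, or within 1 slide. Leaving out 1 array gave 0 to 2, with PIM1 and PIM3 called without pollen replicate 3 and 0 calls without any of the other arrays. Over all these settings, left-out arrays included, the log2 differences stayed between 0.94 and 1.19 for MYC, 0.56 and 0.78 for PIM1 and 0.50 and 0.75 for PIM3. At 6h50 min the 1 call, PIM2, went to 0 with quantile normalization of the processed signal, the percentile over own probes, no filter, the dim areas left out (also with the replicate block), the deposited table and the 2 groups alone, and leaving out 1 array gave 0 to 1, the call staying only without air replicate 3, where the PIM2 spot was not dim. With the dim area set at -0.2 or at -0.5, it held 1 member probe as before.

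For 55 min against 10 min with pollen, the 1 call (MYC) went to 0 with the percentile over own probes, slide as a random block, the deposited table and the 2 groups alone, and leaving out 1 array gave 0 to 1, with 0 without pollen 10 min replicate 1. The percentile over own probes moved the median of all probes by -0.37, and over all probes 45 of 211 calls were then higher, against 136 of 271. For 24 h against 10 min in air, the 7 calls became 3 with own percentiles, 3 with slide as a random block and 2 with the deposited table, and leaving out 1 array gave 5 to 7. With pollen the 6 calls became 2, 3 and 1, and leaving out 1 array gave 5 to 6. For pollen against air at 10 min, 55 min and 24 h, for air at 55 min against 10 min and for the difference between times, all alternatives and left-out arrays gave 0 calls.

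Of the single-gene values under alternatives, 1231 kept a call, or stayed uncalled and moved by less than the largest SD of the groups compared. Another 51 stayed uncalled but moved by at least that SD. A call was lost by 64, gained by 14 and reversed by 0. The replicate block changed no call of pollen against air at 10 min, 55 min and 24 h, and could not be fitted for comparisons between times. The alternatives within 1 slide, the dim areas with the replicate block and the other dim-area thresholds were chosen after seeing the data. With 3 arrays per group, differences of the order of 0.2 on the log2 scale are at the size of the SE of several members.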
